A study of Mus musculus with 8 samples.

Results

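The genes described here are 44 genes of cell division, from the cyclins that start the cycle to the motors that split the cell. They were taken by gene symbol from the deposited gene count tables, and all 44 were found among the 22609 genes listed. All 44 also passed the filter on low counts. No expression value entered the choice of the list, although earlier results of these data were known when it was drawn up.

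The study sequenced total RNA of immortalized mouse dental papilla cells, the mesenchyme of the tooth germ from which odontoblasts arise. The iBmp2fx/fx cells carry floxed alleles of Bmp2, a growth factor of dentin formation, and the iBmp2ko/ko cells are the knock-out derived from that background. Each of the 8 libraries came from cells of 1 genotype cultured for 6, 24, 48 or 72 h, with 1 library per genotype and culture time. Both genotypes are immortalized lines, so a difference between them is a difference between lines as well as between Bmp2 alleles, and these cannot be told apart. Dishes were grown to a stated confluence before the culture time began, and time in culture and rising cell density cannot be told apart either. In bulk RNA, fewer dividing cells and less RNA per dividing cell cannot be told apart.

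Cells enter the cycle when D and E cyclins with their kinases release the E2F factors, which switch on the genes for licensing and copying DNA. Later, Foxm1 and B-Myb, working with the MuvB complex, switch on the genes for mitosis, whose products condense and pull apart the chromosomes until the anaphase-promoting complex ends the cycle. Dental papilla cells divide as the tooth germ grows and leave the cycle as they become odontoblasts, and immortalized lines keep dividing in culture.

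Reads on genes ranged from 25890110 to 32415665 per library. Bmp2 had at most 1 read in any library, in both genotypes, so its counts do not check the labels. Of 12 dental mesenchyme markers, 11 were above 3 reads in some library, with summed levels of 7328 to 8935 CPM (reads scaled to a common library size by TMM) in the iBmp2fx/fx libraries and of 8363 to 13155 CPM in those labelled iBmp2ko/ko. The exception was Lhx8. Most of these sums came from Col1a1, Col1a2 and Vim, at 3585, 3412 and 1278 CPM in the iBmp2fx/fx library of 6 h. Msx1, Msx2 and Pax9 reached at most 7.22, 3.89 and 3.53 CPM in any library. Of 5 odontoblast markers, 3 were above 3 reads in some library, and the list summed to at most 3.78 CPM. Dspp and Ibsp stayed at or under 3 reads everywhere. Sp7 stood at 0.56, 0.32, 2.79 and 3.04 CPM in iBmp2fx/fx cells at 6, 24, 48 and 72 h. In iBmp2ko/ko cells of 6, 48 and 72 h it was at most 0.21 CPM. Epithelial markers summed to at most 1.93 CPM and endothelial markers to at most 3.63 CPM in any library, and Krt5 was at or under 3 reads and Ambn and Emcn at 0 in all of them. Leukocyte markers summed to at most 14.3 CPM, with Ptprc at or under 3 reads and Emr1 at 0 in each library. Markers of glia and neurons summed to 20.7 to 61.8 CPM and those of muscle to 3.55 to 13.4 CPM, with Sox10 and Myog at or under 3 reads and Pax7 at 0.

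The library labelled iBmp2ko/ko at 24 h went against its label. Over the 44 genes it differed from the iBmp2fx/fx library of 6 h by a root mean square of 0.07 on the log2 scale, with a largest fold of 1.14, and no gene differed by over 1.5-fold. From the remaining 6 libraries it differed by 0.34 to 0.86. Over all 13121 genes tested, 75 genes (0.572%) differed by over 1.5-fold between these libraries, the fewest of the 28 pairs of libraries, and the pair next in order differed in 882 genes (6.72%). Their counts were not copies of each other, since 15719 genes had different counts. The mean squared difference over the 44 genes was 4.95 times what counting error alone gives, against 90.5 to 1029.6 times for the other pairs of libraries. For 14 of the 44 genes the library was nearer to the mean of the iBmp2ko/ko libraries of 6, 48 and 72 h than to the corresponding iBmp2fx/fx mean. It was kept out of the main comparisons, and results with it are given beside them. Statements on the order of libraries within the iBmp2ko/ko line cover its libraries of 6, 48 and 72 h.

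**Figure D1:**
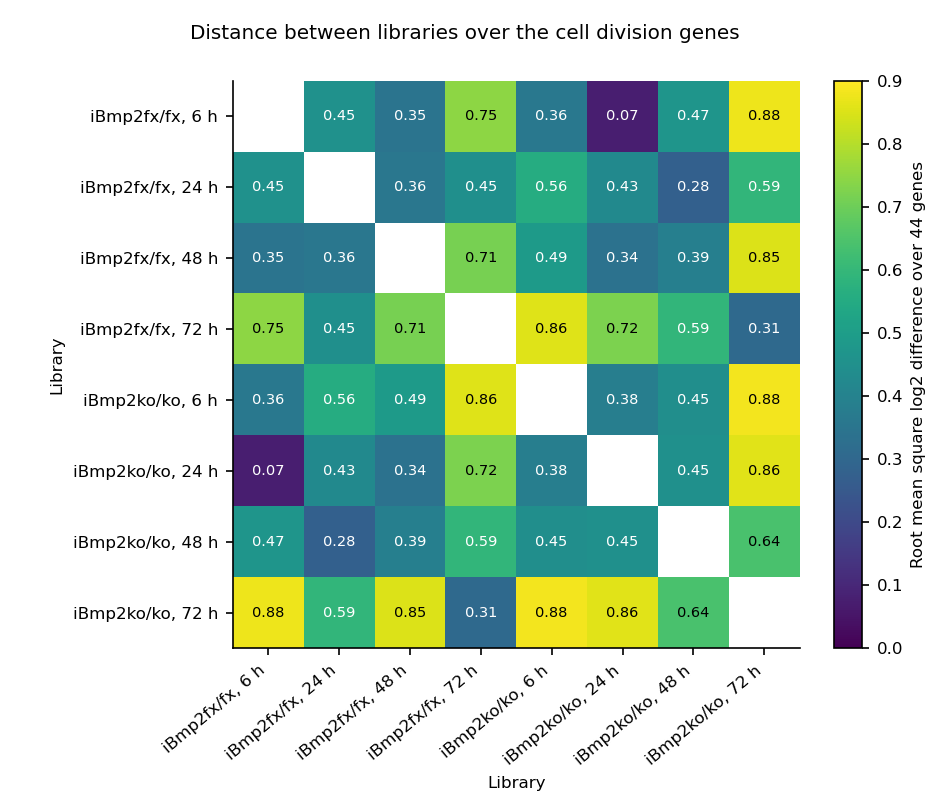
Root mean square log2 difference over the 44 cell division genes for each pair of the 8 libraries, with both axes listing libraries by genotype and culture time and the color giving the difference. The library labelled iBmp2ko/ko at 24 h lies 0.07 from the iBmp2fx/fx library of 6 h, and the libraries of 72 h lie 0.31 from each other and farther from nearly all others.

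The promoters of cell division genes hold short sequences known from studies of the cycle, and those of 7 members are printed because they differ in letters and their RNA differed in its course over culture time. RefSeq promoter windows of the mouse build GRCm38.p6, from 250 bases before to 50 bases after the start, were found for 35 of the 44 genes, 36 windows in all. These sets of letters were searched on both strands: CHR (TTTGAA), the element of mitotic genes bound by MuvB, the CCAAT box (CCAAT), bound by NF-Y, and an E2F sequence (TTTCCCGC, TTTGGCGC, TTTCGCGC or TTTGCCGC). CHR letters stood in 15 of the 36 windows (41.7%), against 17.9% of all 32851 promoter windows and 11.8% of the windows of genes tested. CCAAT letters stood in 29 windows (80.6%), against 37.4% of all windows, and an E2F sequence in 8 (22.2%), against 2.27%. Among the windows of genes tested, 37.98% held CCAAT letters and 3.84% an E2F sequence. CHR and CCAAT stood together in 15 windows (41.7%), against 6.95% of all windows and 4.73% of those of genes tested. A match describes the sequence and does not show that a factor binds there. The 250 bases before the start are given 5′ to 3′ on the coding strand, with every match of these sets in capitals. Mki67, Cdc20, Ube2c and Cdk1 had higher RNA at 72 h than at 6 h, Mcm7 had lower RNA, and Mcm5 and Mcm6 passed no limit in that comparison, while Mcm6 was lower at 72 h than at 48 h. Mcm7 has a pair of annotated starts. The upstream one is printed, and the window of the other holds 1 CCAAT match and no E2F sequence.
Mki67, chr7:135716380-135716629, minus strand: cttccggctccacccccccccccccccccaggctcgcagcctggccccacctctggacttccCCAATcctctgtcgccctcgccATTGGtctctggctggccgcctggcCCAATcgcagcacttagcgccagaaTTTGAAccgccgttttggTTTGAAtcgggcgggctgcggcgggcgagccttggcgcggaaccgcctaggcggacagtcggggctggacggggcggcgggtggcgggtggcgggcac
Cdc20, chr4:118437344-118437593, minus strand: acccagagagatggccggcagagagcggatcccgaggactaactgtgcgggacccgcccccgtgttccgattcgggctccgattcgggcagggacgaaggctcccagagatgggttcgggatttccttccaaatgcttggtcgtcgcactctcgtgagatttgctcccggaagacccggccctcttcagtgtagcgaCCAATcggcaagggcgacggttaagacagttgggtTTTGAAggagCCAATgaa
Ube2c, chr2:164769679-164769928, plus strand: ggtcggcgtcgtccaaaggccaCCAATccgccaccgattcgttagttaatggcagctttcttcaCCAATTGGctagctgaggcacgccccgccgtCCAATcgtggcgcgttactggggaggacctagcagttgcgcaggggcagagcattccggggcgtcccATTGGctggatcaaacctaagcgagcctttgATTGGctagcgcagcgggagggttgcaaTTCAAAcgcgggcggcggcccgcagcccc
Cdk1, chr10:69352913-69353162, minus strand: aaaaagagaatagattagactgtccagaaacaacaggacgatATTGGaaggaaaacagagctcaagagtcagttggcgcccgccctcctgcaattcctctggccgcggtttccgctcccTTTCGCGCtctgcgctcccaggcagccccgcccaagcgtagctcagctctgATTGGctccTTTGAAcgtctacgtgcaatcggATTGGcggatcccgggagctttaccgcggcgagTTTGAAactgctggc
Mcm5, chr8:75109259-75109508, plus strand: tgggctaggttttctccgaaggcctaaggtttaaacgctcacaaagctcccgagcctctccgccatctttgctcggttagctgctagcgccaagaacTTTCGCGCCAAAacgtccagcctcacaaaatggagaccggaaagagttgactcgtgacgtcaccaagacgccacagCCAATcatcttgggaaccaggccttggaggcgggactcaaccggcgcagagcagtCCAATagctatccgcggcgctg
Mcm6, chr1:128359706-128359955, minus strand: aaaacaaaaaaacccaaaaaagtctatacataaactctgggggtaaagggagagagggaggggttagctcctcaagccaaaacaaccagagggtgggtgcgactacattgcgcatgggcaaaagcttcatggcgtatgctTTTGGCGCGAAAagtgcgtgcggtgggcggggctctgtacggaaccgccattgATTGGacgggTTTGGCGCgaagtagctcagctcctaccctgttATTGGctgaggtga
Mcm7, chr5:138171884-138172133, minus strand: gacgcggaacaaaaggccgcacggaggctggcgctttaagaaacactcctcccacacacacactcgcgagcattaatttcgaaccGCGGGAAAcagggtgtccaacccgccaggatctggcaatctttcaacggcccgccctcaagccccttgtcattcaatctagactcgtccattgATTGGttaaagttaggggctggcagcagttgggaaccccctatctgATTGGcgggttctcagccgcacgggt
The windows of the proliferation marker Mki67 and of Cdc20 and Ube2c, which serve the anaphase-promoting complex, hold CHR and CCAAT letters and no E2F sequence. The printed windows of Mcm5, Mcm6 and Mcm7, subunits of the replicative helicase, hold E2F sequences and CCAAT letters and no CHR. In Mcm5 and Mcm6 a pair of E2F matches on opposite strands overlap and share 1 run of capitals, as does a pair of CCAAT matches in Ube2c. The window of Cdk1, the mitotic kinase, holds all 3 kinds. The printed genes were picked by letters and course, so the contrast among them was set by the choice. Among those not printed, Birc5 rose and has no match of any set, and Mcm2 holds CHR letters and no E2F sequence.

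Per base of exon, the members were abundant transcripts. Their median level was 39.1 RPKM (reads scaled to exon length and library size, as the median over the 8 libraries), against 9.43 RPKM over the 12926 tested genes with a known length, and 43 of the 44 were above that median. In the annotation of the mm9 build, the genes with the most values here lie at chr7:152115836-152125774, minus strand (Ccnd1), chr8:125091915-125097028, plus strand (Cdt1), chr7:129302951-129313389, plus strand (Plk1), chr16:15623990-15637493, minus strand (Mcm4), chr6:128312985-128325911, plus strand (Foxm1) and chr7:142881471-142908062, minus strand (Mki67), and reads were counted over their exons. The highest were helicase subunits and ribonucleotide reductase, with Mcm4 at 165 RPKM, Rrm1 at 145 RPKM and Mcm3 at 137 RPKM. The lowest were the B-Myb gene Mybl2 at 7.01 RPKM, Ccne2 at 9.96 RPKM and Ccnb1 at 10.2 RPKM. Some of these levels are uncertain, because reads that match several genome positions were not counted on a gene. In a median member 99.2% of the 50-base windows of its exons occur once in mm9, but the share was 69.0% in Pcna, 69.2% in Ccnb1, 72.5% in Mybl2, 83.9% in Mcm7, 87.8% in Cdc6 and 87.9% in Cdc20. Between the lowest and the highest library, Ccnd1 varied most (9.29-fold), followed by Cenpe (4.57-fold) and Ccne2 (3.96-fold). Mcm2 (1.17-fold), Mcm3 (1.23-fold) and Cdc6 (1.31-fold) varied least.

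**Figure D2:**
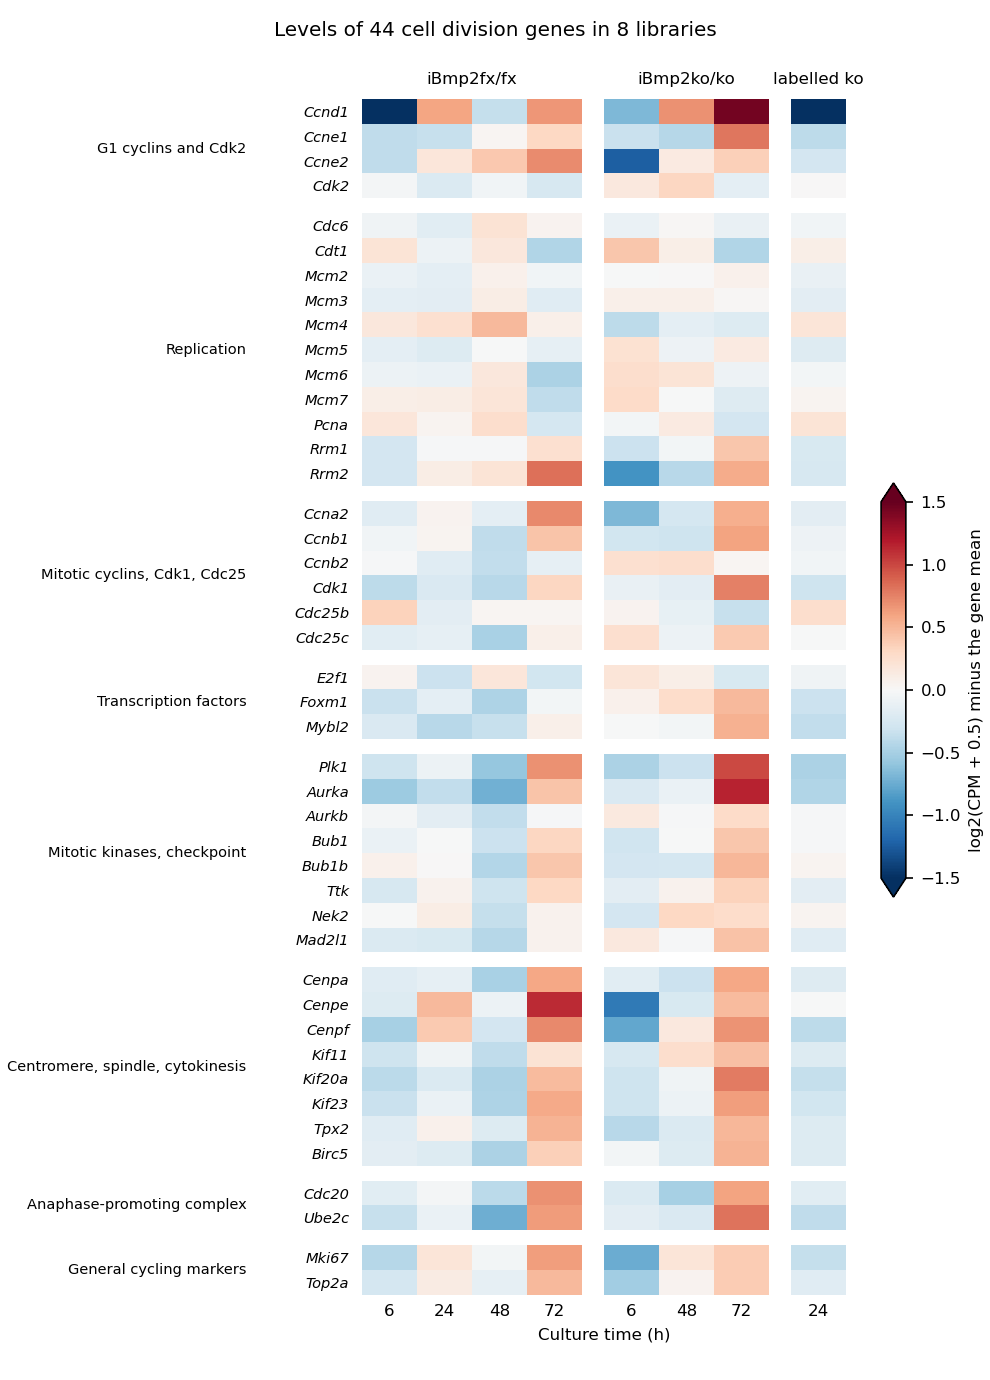
Level of each of the 44 genes in the 8 libraries, as log2(CPM + 0.5) minus the mean of the gene over the libraries of 6, 48 and 72 h, with genes as rows grouped by role and libraries as columns by genotype and culture time (h). The column set apart is the library labelled iBmp2ko/ko at 24 h. The 72 h columns are the reddest of their lines for most of the mitotic and spindle genes, but not for Ccnb2, Cdc25b and Nek2.

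Most of these genes differed between culture times, mainly between 48 and 72 h. At 72 h the mitotic cyclin Ccna2, the kinases Plk1 and Aurka, the centromere and spindle genes and Cdc20 and Ube2c were higher than at 6 h in both lines, while the licensing factor Cdt1, the helicase subunit Mcm7 and the sliding clamp Pcna were lower. With culture times as separate levels and genotype as a term over the 6 libraries of 6, 48 and 72 h, 30 of the 44 genes passed an adjusted p of 0.05 between 72 and 6 h in the quasi-likelihood test of edgeR (p adjusted by Benjamini-Hochberg over all genes). Of these, 25 rose and 5 fell. The background was 41.9% of all genes tested, with 19.6% higher and 22.3% lower, so the members' share was above the background among genes that rose and below it among genes that fell. The median log2 difference was 0.53 over the 44 genes and -0.01 over all genes tested. Between 48 and 6 h, 2 members passed, against 1.85% of all genes. Between 72 and 48 h, 26 members passed, 22 higher and 4 lower, against 30.1% of all genes, with 13.7% higher and 16.3% lower. Each time has 2 libraries, 1 per line, so the p-values measure only the spread between these samples. The counts from other sets of libraries that follow are given without the shares of all genes in those fits. The count of 30 dropped to 17 without the iBmp2ko/ko library of 6 h and to 14 without that of 72 h. Over all 8 libraries it was 22. The count of 26 between 72 and 48 h dropped to 6 without the iBmp2ko/ko library of 72 h, to 17 without either 48 h library or the iBmp2fx/fx library of 72 h, and to 16 over all 8 libraries.

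A slope over all culture times gave fewer calls. The slope per doubling of hours over 7 libraries, without the library labelled iBmp2ko/ko at 24 h, passed the adjusted limit for 0 of the 44 genes in edgeR, as for 0.0% of all genes, and 15 members had an unadjusted p under 0.05, against 26.1% of all genes. DESeq2 called 8 members, all rising (Ccnd1, Ccne2, Cenpe, Cenpf, Mki67, Rrm1, Rrm2 and Top2a), against 12.5% of all genes. The median slope was 0.12 per doubling for the members and 0.01 for all genes.

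**Figure D3:**
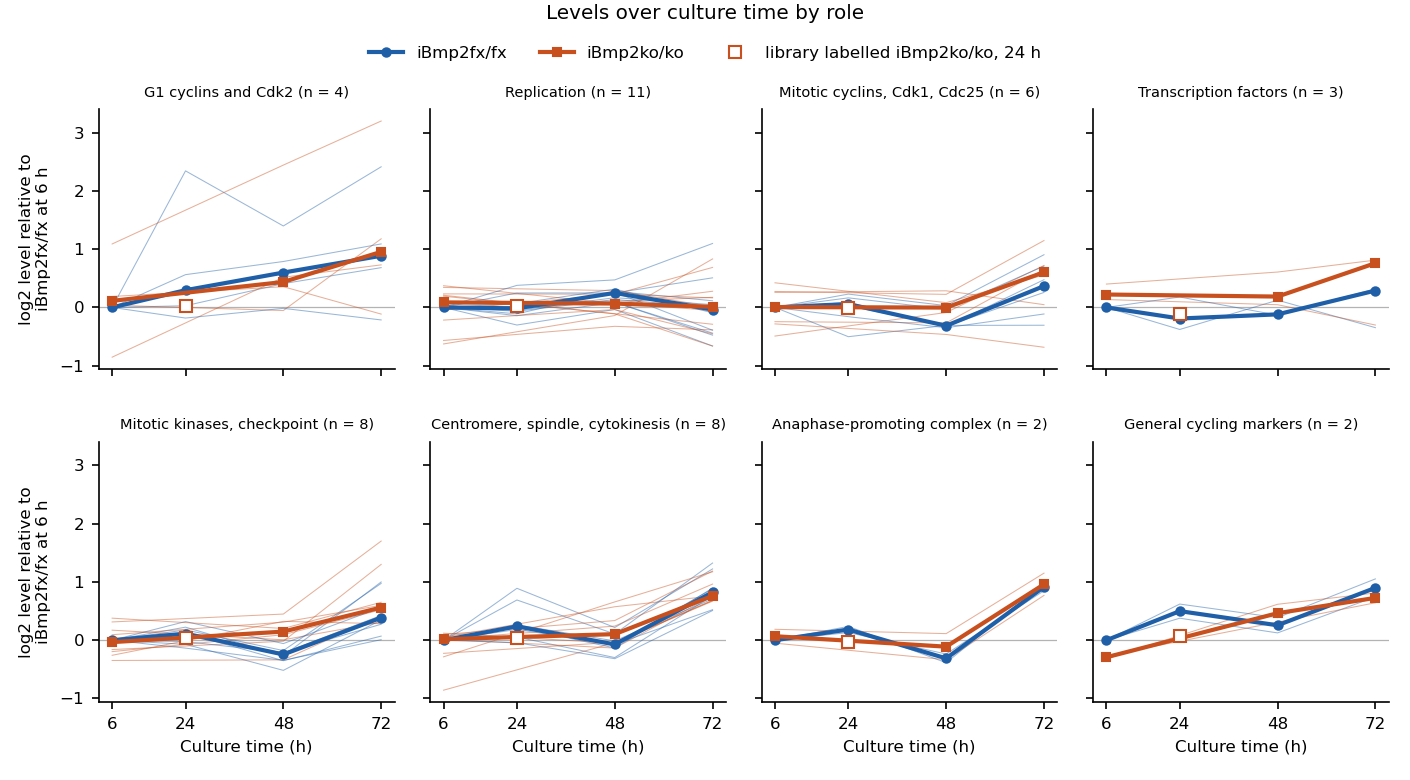
Level relative to the iBmp2fx/fx library of 6 h (log2 difference, vertical) against culture time (h, horizontal) for each role, with thin lines for single genes, thick lines for the median of the role in each line, and an open square for the library labelled iBmp2ko/ko at 24 h. The medians of the centromere and spindle genes end at 0.82 and 0.76 at 72 h, and those of the replication genes at -0.04 and 0.01.

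Among the genes of entry into the cycle, cyclins D1, E1 and E2 were higher at 72 h than at 6 h and Cdk2, the partner of the E cyclins, passed no limit. Ccnd1, cyclin D1, which couples growth signals to the cycle, stood in iBmp2fx/fx cells at 41.1 CPM at 6 h, 211 CPM at 24 h, 109 CPM at 48 h and 221 CPM at 72 h. In iBmp2ko/ko cells it stood at 88.1, 226 and 382 CPM at 6, 48 and 72 h. The library labelled iBmp2ko/ko at 24 h had 41.5 CPM, at the level of the lowest library. Leaving that library aside, the 6 h library was the lowest of each line, and the 24 h library of the iBmp2fx/fx line was close to that of 72 h. The log2 difference between 72 and 6 h was 2.24 ± 0.15 (SE), 4.72-fold, with an adjusted p of 0.000333 (edgeR), and with all 8 libraries the difference was 2.24 with an adjusted p of 0.0812. Cyclin E2, Ccne2, stood at 23.8, 35.4, 41.4 and 51.2 CPM at 6, 24, 48 and 72 h in iBmp2fx/fx cells, and at 12.9, 34.3 and 39.8 CPM at 6, 48 and 72 h in iBmp2ko/ko cells. It increased with each later time in both lines (72 against 6 h, log2 1.31 ± 0.18, edgeR adjusted p = 0.00187). Ccnd1 and Ccne2 were the 2 genes that had already passed the limit between 48 and 6 h, with log2 differences of 1.36 and 1.08. Over all 8 libraries neither passed, and leaving out a library gave 1 to 5 members.

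Cyclin E1, Ccne1, was also higher at 72 h. Its levels in iBmp2fx/fx cells were 33.2, 33.9, 44.2 and 53.6 CPM in order of time, and in iBmp2ko/ko cells 34.1, 32.0 and 75.8 CPM. The 72 h library was the highest of each line, by a wider margin in iBmp2ko/ko cells (log2 0.90 ± 0.21, edgeR adjusted p = 0.0126). Cdk2, the kinase that E cyclins activate, stood at 142, 125, 141 and 122 CPM in iBmp2fx/fx cells and at 162, 182 and 131 CPM in iBmp2ko/ko cells. Its 72 h libraries were the lowest of their lines, but the difference from 6 h did not pass (log2 -0.29, 95% interval -0.61 to 0.02, edgeR adjusted p = 0.119).

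The 11 genes of replication split. Of these, 5 passed the limit between 72 and 6 h, 2 higher and 3 lower, and the median log2 difference over the 11 was -0.08, against 0.72 for the 33 members outside replication. The genes that rose were the subunits of ribonucleotide reductase, the enzyme that supplies deoxynucleotides. Rrm2, its S-phase subunit, stood at 171, 223, 238 and 367 CPM in iBmp2fx/fx cells and at 111, 156 and 306 CPM in iBmp2ko/ko cells, again rising with each later time (log2 1.25 ± 0.13, edgeR adjusted p = 0.000824). Rrm1 had a log2 difference of 0.58 ± 0.13.

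The genes that fell license or carry the fork. Cdt1, which loads the helicase on origins and is destroyed in S phase, stood at 268, 218, 262 and 169 CPM in iBmp2fx/fx cells and at 310.5, 249 and 169 CPM in iBmp2ko/ko cells. Both 72 h libraries were below the other 6 libraries (log2 -0.81 ± 0.14, edgeR adjusted p = 0.00387). Pcna, the clamp that holds the polymerase, stood at 168, 153, 179 and 124 CPM in iBmp2fx/fx cells and at 145, 164 and 123 CPM in iBmp2ko/ko cells, with both 72 h libraries again the lowest (log2 -0.38, edgeR adjusted p = 0.0387). Mcm7 stood at 223, 224, 238 and 160.4 CPM and at 255, 207 and 183 CPM, with the same order (log2 -0.52, edgeR adjusted p = 0.0225). The call of Pcna was lost in 10 of 11 alternatives, among them all 8 libraries (adjusted p = 0.125) and DESeq2 (0.0605), and held only without the iBmp2fx/fx library of 48 h. That of Mcm7 was lost over all 8 libraries (0.0626), without the iBmp2ko/ko library of 6 h (0.150) and without either 72 h library (0.148 and 0.207). These were the 3 members whose 72 h libraries lay below all others, against 17.6% of all genes.

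The remaining 6 genes of licensing and the fork passed no limit between 72 and 6 h. Mcm5 stood at 278, 266, 306 and 279 CPM in iBmp2fx/fx cells and at 360.2, 291 and 337 CPM in iBmp2ko/ko cells. Cdc6, which recruits the helicase to origins with Cdt1, stood at 72.2, 66.9, 87.6 and 78.2 CPM and at 70.5, 76.3 and 69.6 CPM. Neither showed an order by time, and the 95% interval of the 72 h difference was -0.43 to 0.26 on the log2 scale for Mcm5 and -0.29 to 0.31 for Cdc6. Mcm2, Mcm3 and Mcm4 had log2 differences of 0.03, -0.09 and 0.01, and Mcm6 had -0.40 with an edgeR adjusted p of 0.0558. Mcm6 passed between 72 and 48 h (log2 -0.49, edgeR adjusted p = 0.0383).

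Of the 6 mitotic cyclins, kinase and phosphatases, 3 rose between 6 and 72 h and 1 fell. Ccna2, cyclin A2, which acts from S phase into mitosis, stood at 249.8, 293, 255 and 468 CPM in iBmp2fx/fx cells and at 177, 235 and 412 CPM in iBmp2ko/ko cells (log2 1.02 ± 0.14, edgeR adjusted p = 0.00182). Cdk1, the kinase that starts mitosis, stood at 219.5, 246, 215 and 359 CPM and at 266, 257 and 487 CPM (log2 0.76 ± 0.12, edgeR adjusted p = 0.00348). Ccnb1, its cyclin B1 partner, stood at 43.6, 46.2, 34.5 and 60.8 CPM and at 36.7, 36.2 and 68.7 CPM (log2 0.65 ± 0.15). In these 3 genes both 72 h libraries lay above the other 6 libraries. Ccnb2 did not follow Ccnb1: it stood at 104, 93.4, 81.8 and 96.4 CPM in iBmp2fx/fx cells and at 125, 127 and 108 CPM in iBmp2ko/ko cells (log2 -0.19, 95% interval -0.56 to 0.18). Cdc25b, a phosphatase that activates Cdk1, stood at 164, 116, 132 and 133 CPM and at 135, 119 and 102 CPM, with a log2 difference of -0.39 and an edgeR adjusted p of 0.0474. That call was lost in 10 of 11 alternatives, among them all 8 libraries (adjusted p = 0.247) and DESeq2 (0.0607), and held only without the iBmp2fx/fx library of 48 h. Cdc25c had a log2 difference of 0.16 between 72 and 6 h and of 0.52 between 72 and 48 h, and only the second passed (edgeR adjusted p = 0.0328).

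The transcription factors did not move as a group. E2f1, a driver of S-phase genes, stood at 97.7, 75.0, 107 and 76.7 CPM in iBmp2fx/fx cells and at 107, 101 and 79.1 CPM in iBmp2ko/ko cells, and fell between 6 and 72 h (log2 -0.43 ± 0.13, edgeR adjusted p = 0.0290). That call was lost over all 8 libraries (0.0747), without the iBmp2ko/ko library of 6 h (0.180) and without either 72 h library (0.176 and 0.235). Foxm1, a driver of mitotic genes, stood at 162, 183, 147 and 198 CPM and at 213, 246 and 284 CPM (log2 0.31, edgeR adjusted p = 0.104). Mybl2 stood at 30.3, 26.5, 27.9 and 37.9 CPM and at 35.4, 34.6 and 51.7 CPM (log2 0.40, edgeR adjusted p = 0.0549). The 72 h library was the highest of each line for Foxm1 and Mybl2, although neither difference from 6 h passed, and E2f1 at 72 h was among the lowest of each line. Mybl2 passed between 72 and 48 h (log2 0.49, edgeR adjusted p = 0.0344), and its difference from 6 h passed in 4 of 11 alternatives.

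Of the 8 mitotic kinases and checkpoint genes, 5 rose by 72 h and none fell. Of these calls, that of Ttk was lost in 5 of 11 alternatives, that of Bub1b in 4 and that of Bub1 in 3. Plk1, which triggers mitotic entry and spindle assembly, stood at 65.6, 76.8, 54.4 and 132 CPM in iBmp2fx/fx cells and at 58.7, 64.8 and 163 CPM in iBmp2ko/ko cells (log2 1.20 ± 0.15, 2.29-fold, edgeR adjusted p = 0.00125). Aurka, the centrosome kinase, stood at 40.7, 46.1, 36.0 and 80.6 CPM and at 50.8, 55.8 and 134 CPM (log2 1.15 ± 0.14). Bub1, a checkpoint kinase of the kinetochore, stood at 105, 113, 90.4 and 142 CPM and at 91.9, 112 and 152 CPM (log2 0.53 ± 0.15). In all 3 genes both 72 h libraries were above the other 6 libraries, and the iBmp2fx/fx library of 48 h was the lowest of its line. Bub1b and Ttk, also of the spindle checkpoint, had log2 differences of 0.52 and 0.50. Aurkb, the kinase of the chromosomal passenger complex, stood apart with 85.9, 78.2, 67.5 and 86.5 CPM in iBmp2fx/fx cells and 96.9, 86.4 and 107 CPM in iBmp2ko/ko cells (log2 0.04, 95% interval -0.25 to 0.32). Nek2 (log2 0.26) and Mad2l1 (log2 0.24) passed no limit between 72 and 6 h, and Mad2l1 passed between 72 and 48 h (log2 0.45, edgeR adjusted p = 0.0280).

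All 8 genes of the centromere, spindle and cytokinesis rose between 6 and 72 h, with log2 differences from 0.50 to 1.39. The call was lost for Kif11 in 4 of 11 alternatives, for Birc5 in 3 and for Tpx2 in 1. Cenpe, a kinetochore motor, stood at 131, 212, 141 and 329 CPM in iBmp2fx/fx cells and at 72.1, 127 and 209 CPM in iBmp2ko/ko cells (log2 1.39 ± 0.19, 2.62-fold, edgeR adjusted p = 0.00163). Cenpa, the histone that marks the centromere, stood at 113, 118, 92.2 and 193 CPM and at 115, 103 and 193 CPM (log2 0.72 ± 0.13). Kif20a, a motor of cytokinesis, stood at 143, 162, 136 and 263 CPM and at 153, 180.3 and 325 CPM (log2 0.95 ± 0.13). For Cenpa and Kif20a the 72 h levels were apart from all others, whereas Cenpe at 24 h in iBmp2fx/fx cells was as high as at 72 h in iBmp2ko/ko cells. Birc5, survivin of the passenger complex, stood at 111, 107, 88.7 and 158 CPM and at 120.3, 107 and 178 CPM (log2 0.50 ± 0.12). Cenpf, Kif11, Kif23 and Tpx2, which serve the kinetochore and the spindle, had log2 differences of 1.30, 0.58, 0.89 and 0.77.

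Cdc20 and Ube2c, which hand substrates to the anaphase-promoting complex and tag them for destruction, rose together. Cdc20 stood at 119.6, 131, 101 and 216 CPM in iBmp2fx/fx cells and at 116, 94.8 and 204 CPM in iBmp2ko/ko cells. Ube2c stood at 65.4, 77.1, 49.9 and 129.5 CPM and at 74.5, 70.7 and 146 CPM. Without the library labelled iBmp2ko/ko at 24 h, which had 63.4 CPM of Ube2c, the 48 h library was the lowest of each line and the 72 h library the highest, with log2 differences between 72 and 48 h of 1.08 ± 0.12 for Cdc20 and 1.19 ± 0.15 for Ube2c (edgeR adjusted p = 0.00183 and 0.00227). The general markers of cycling cells also rose. Mki67, the antigen Ki-67, stood at 403, 619.7, 527 and 836 CPM and at 322, 618 and 707 CPM (72 against 6 h, log2 1.06 ± 0.18, edgeR adjusted p = 0.00365). Top2a, the topoisomerase that untangles chromosomes, stood at 518, 673, 565 and 868 CPM and at 431, 643 and 809 CPM (log2 0.79 ± 0.16). For both markers the 6 h library was the lowest of each line.

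There were 22 members with both 72 h libraries above the other 6 libraries, against 18.7% of all genes. In all, 14 members passed the limit between 72 and 6 h also when each of the 6 libraries was left out in turn: Ccnd1, Ccne2, Rrm2, Ccna2, Plk1, Aurka, Cenpa, Cenpe, Cenpf, Kif20a, Kif23, Cdc20, Ube2c and Mki67. Of all genes, 10.8% did so, and 4.34% did so as higher. None of the 5 genes that fell was among them. Of the rising genes not named so far for a lost call, Rrm1, Ccnb1, Ccne1 and Top2a lost it in 2 of 11 alternatives and Cdk1 in 1. Cdt1 had an adjusted p of 0.0783 without the iBmp2ko/ko library of 72 h. Alignments of reads with several positions, which were not counted on genes, made up 45.6% and 49.6% of the table total in the 72 h libraries and 41.3% to 48.4% in the others, and their part in these differences was not tested.

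**Figure D4:**
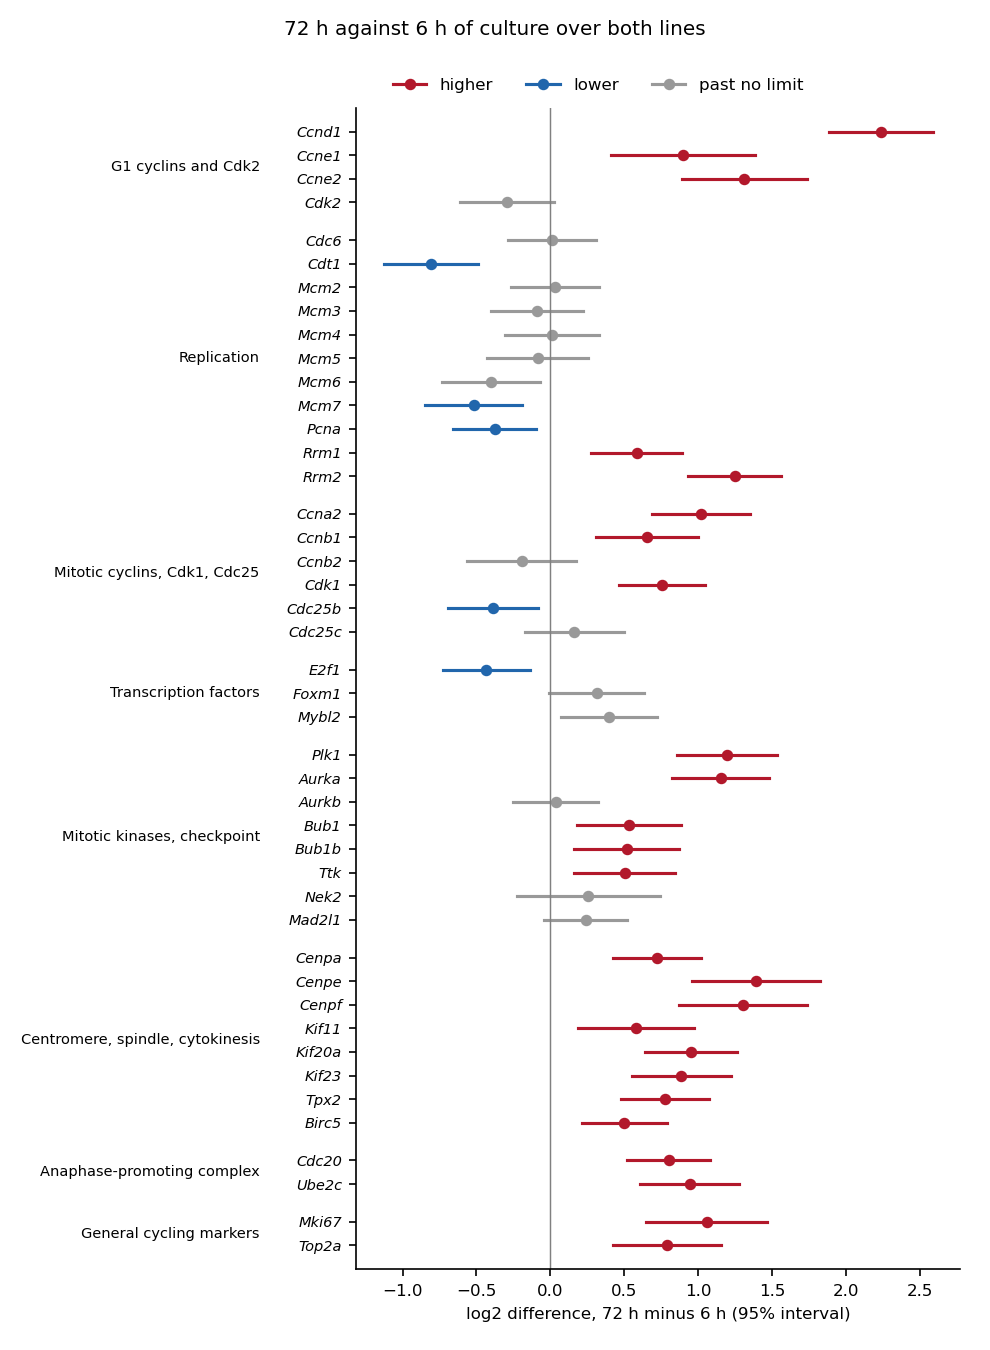
Log2 difference between 72 and 6 h of culture (horizontal) for each of the 44 genes (rows, grouped by role) over both lines, from the edgeR fit to 6 libraries, with bars for the 95% interval and color for genes past an adjusted p of 0.05. The 25 genes that rose include all 8 of the centromere, spindle and cytokinesis, and 5 genes fell.

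The promoter letters were then counted by the course of the RNA. CHR letters stood in 13 of the 20 windows of genes that rose between 6 and 72 h, in 2 of the 10 windows of genes not called between these times (Ccnb2 and Mcm2) and in 0 of the 6 windows of genes that fell. An E2F sequence stood in 1 of the 20, that of Cdk1, in 5 of the 10 (Cdc6, Cdk2, Mcm3, Mcm5 and Mcm6) and in 2 of the 6 (Cdt1 and Mcm7). CCAAT letters stood in most windows of each class, 18 of the 20, 7 of the 10 and 4 of the 6. By role, CHR letters stood in 1 of 11 windows of replication genes and in 14 of 25 windows of the other members. An E2F sequence stood in 6 of the 11 and in 2 of the 25, so the split by course overlaps that by role. These are counts of letters over few windows, given with no test and without the shares among all genes that rose or fell.

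The question of genotype was whether loss of Bmp2 changed the RNA of these genes. No member passed the adjusted limit between the 3 iBmp2ko/ko and 3 iBmp2fx/fx libraries of 6, 48 and 72 h (0 of 44 in edgeR's quasi-likelihood test, against 2.22% of all genes), and DESeq2 also called 0. At an unadjusted p under 0.05 there were 2, Foxm1 higher and Mcm4 lower, against 14.0% of all genes. The median log2 fold change was 0.08 for the members and 0.03 for all genes tested. For 32 of the 44 genes the 95% interval lay within 2-fold in either direction. The limit of the study's methods, an unadjusted p under 0.05 with a log2 fold change over 1, was met by 0 members, against 7.35% of all genes. The p here came from edgeR's test on counts, whereas the study used limma with levels as log2 RPKM, so these are not the study's calls.

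Libraries of the same culture time moved together, and taking culture time as a block changed the count. Without the block, differences between culture times enter the spread within each line. The SE of the Ccnd1 fold change was 0.68 without the block and 0.12 with it. With the block 8 of the 44 genes passed the adjusted limit, 4 higher and 4 lower in iBmp2ko/ko cells, against 22.7% of all genes, with 11.3% higher and 11.4% lower. The members' share was below that background. The higher ones were Ccnd1 (log2 0.97 ± 0.12, edgeR adjusted p = 0.00181), Aurka (0.56 ± 0.11, adjusted p = 0.0133), Foxm1 (0.55 ± 0.11, adjusted p = 0.0135) and Mad2l1 (0.39 ± 0.10, adjusted p = 0.0292). The lower ones were Cenpe (-0.56 ± 0.15, edgeR adjusted p = 0.0335), Rrm2 (-0.51 ± 0.11, adjusted p = 0.0157), Mcm4 (-0.51 ± 0.11, adjusted p = 0.0177) and Ccne2 (-0.50 ± 0.15, adjusted p = 0.0455). Leaving out a library in turn gave 2 to 7 such genes: 3 without either 6 h library, 4 without the iBmp2ko/ko library of 48 h or the iBmp2fx/fx library of 72 h, and 2 without the iBmp2ko/ko library of 72 h. With all 8 libraries, including the one that went against its label, 0 members passed, with or without the block. Without the block 0 of all 13053 genes passed. The shares of all genes with the block over 8 libraries, or with a library left out, are not given. Ccnd1 had a log2 fold change of 0.34 over all 8 libraries without the block. Over the 6 libraries without the block, fold changes with a library left out ranged widely. They were 0.34 to 1.62 for Ccnd1, 0.02 to 1.06 for Aurka, 0.44 to 0.68 for Foxm1 and 0.26 to 0.53 for Mad2l1. For Cenpe they were -1.01 to -0.01, for Rrm2 -0.96 to -0.11, for Mcm4 -0.59 to -0.40 and for Ccne2 -0.72 to -0.09.

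The levels of Foxm1 and Mcm4 did not overlap between the lines. Foxm1 averaged 169 ± 25.9 CPM (SD, n = 3) in the iBmp2fx/fx libraries of 6, 48 and 72 h and 248 ± 35.3 CPM (n = 3) in the iBmp2ko/ko libraries, and the lowest iBmp2ko/ko library, 213 CPM, was above the highest iBmp2fx/fx library, 198 CPM. Mcm4, the helicase subunit, stood at 610.1, 639, 759 and 573 CPM in iBmp2fx/fx cells and at 411, 487 and 467 CPM in iBmp2ko/ko cells, with a gap between the lines and with 617 CPM in the library labelled iBmp2ko/ko at 24 h. Ccnb2 was the third member whose groups did not overlap, at 94.2 ± 11.4 CPM and 119.9 ± 10.6 CPM (SD, n = 3 each). These 3 of 44 are a smaller share than the 20.0% of all genes.

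For Mad2l1, a checkpoint protein that holds back Cdc20, the levels were 79.2, 77.9, 68.3 and 95.9 CPM in iBmp2fx/fx cells and 103, 91.2 and 125 CPM in iBmp2ko/ko cells. At each of 6, 48 and 72 h it was higher in iBmp2ko/ko cells, by log2 0.38, 0.41 and 0.38, while the ranges of the lines overlapped. Ccnd1 was higher in iBmp2ko/ko cells by log2 1.09, 1.05 and 0.79 at those times. In the library labelled iBmp2ko/ko at 24 h it was lower than in the iBmp2fx/fx library of 24 h, by log2 -2.33. In 27 members the difference had the same sign at 6, 48 and 72 h, and in 13 of these 27 the 24 h pair had the opposite sign. Of the 8 members past the limit with the block, 3 were nearer in that library to the iBmp2ko/ko mean than to the iBmp2fx/fx mean.

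**Figure D5:**
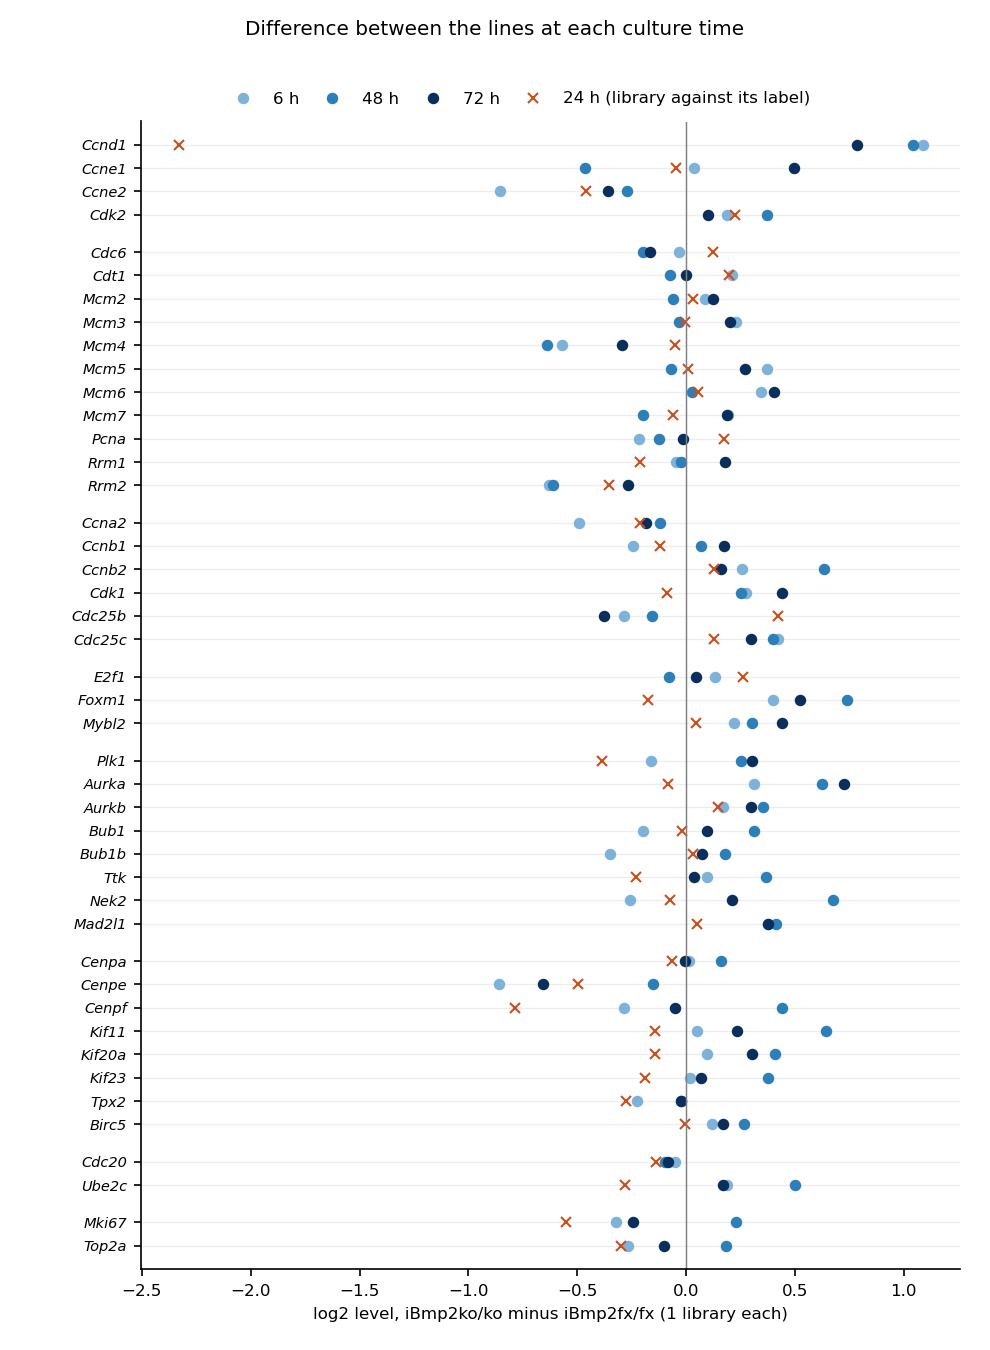
Difference in log2 level between iBmp2ko/ko and iBmp2fx/fx cells (horizontal) for each of the 44 genes (rows, grouped by role) at 6, 48 and 72 h (dots) and 24 h (crosses), with 1 library per line and time and no error bars. Most dots lie within 0.5 of 0, and the cross of Ccnd1 lies at -2.33, opposite to its dots.

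Single pairs of libraries gave no common direction at 6 h, where 25 of the 44 genes were higher and 19 lower in iBmp2ko/ko cells. At 48 h the members outside replication were higher in 25 of 33 cases, with a median of 0.31, and the replication genes were lower in 10 of 11 cases, with a median of -0.08. At 72 h the members outside replication were higher in 23 of 33 cases, with a median of 0.16, and the replication genes in 6 of 11, with a median of 0.13. Of all 13121 genes tested, 6598 were higher at 48 h and 7511 at 72 h. At 48 h, 6 members were over 1.5-fold higher in iBmp2ko/ko cells, against 9.76% of all genes, and 2 over 1.5-fold lower, against 9.92%. At 6 h there was 1 higher (background 11.0%) and 3 lower (14.9%), and at 72 h there were 2 higher (10.1%) and 1 lower (9.34%). In the 24 h pair, which holds the doubted library, there were 0 higher (7.21%) and 2 lower (7.41%). These pairs have no replicates.

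No member's change over culture time passed the test of a difference between the lines. The interaction of genotype and culture time passed the adjusted limit for 0 of the 44 genes in edgeR, as for 0.0% of all genes, and DESeq2 called 0 members. At an unadjusted p under 0.05 there were 0 members, against 1.01% of all genes. The rise of the 72 h library over that of 6 h had a median of log2 0.49 in iBmp2fx/fx cells and of 0.72 in iBmp2ko/ko cells over the 44 genes. With 18 members over 1.5-fold higher in iBmp2fx/fx cells (background 13.2%) and 23 in iBmp2ko/ko cells (background 22.3%), the rise was seen within each line. Only 1 member was over 1.5-fold lower in each line (backgrounds 18.5% and 20.3%).

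Other genes of the cycle, 85 found of a list of 86, were read in the same fits. Between 72 and 6 h, 45 of the 85 passed the limit, 35 higher and 10 lower, against 41.9% of all genes, 19.6% higher and 22.3% lower. The inhibitors of the cyclin-dependent kinases went mostly the other way. Cdkn1b, p27, stood at 131, 99.0, 91.3 and 55.5 CPM in iBmp2fx/fx cells and at 118, 112 and 63.2 CPM in iBmp2ko/ko cells (log2 -1.11 ± 0.14, edgeR adjusted p = 0.00152). Cdkn1c, p57, stood at 10.9, 5.79, 7.44 and 2.03 CPM and at 54.5, 24.9 and 5.70 CPM (log2 -2.93 ± 0.25). Both were lowest at 72 h in each line. Cdkn2a, which encodes p16 and p19Arf, fell by 0.91 and Cdkn2c, p18, by 0.69 on the log2 scale. Cdkn1a, p21, had instead a higher level at 72 h than at 6 h (log2 0.88 ± 0.28, edgeR adjusted p = 0.0410). It stood at 235, 389, 482 and 328 CPM in iBmp2fx/fx cells and at 128, 161 and 310 CPM in iBmp2ko/ko cells. The iBmp2fx/fx level was thus highest at 48 h, and the lines were close at 72 h. Cdkn2b and Cdkn2d passed no limit between 72 and 6 h. Between 72 and 48 h, 7 of the 10 inhibitors and pocket proteins fell and 0 rose, against 16.3% of all genes lower and 13.7% higher. The calls of these genes without each library were not counted.

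Among the remaining genes of that list the largest differences between 72 and 6 h were those of Cdk6 (log2 1.47 ± 0.28) and E2f5 (1.44 ± 0.18) upward. Pkmyt1, a kinase that restrains Cdk1, had -1.26 ± 0.14, the lowest after Cdkn1c. In the genotype comparison 0 of the 85 passed without the block, 5 had an unadjusted p under 0.05, and 14 passed with the block, 11 higher and 3 lower. In all genes the shares were 2.22%, 14.0% and 22.7%, the last with 11.3% higher and 11.4% lower. Cdkn1c was higher in iBmp2ko/ko cells with the block (log2 1.89, edgeR adjusted p = 0.000961), and Cdkn1a was lower (log2 -0.85, adjusted p = 0.0378). Pttg1, securin, and Cdc45, a helicase partner, passed with log2 fold changes of 0.79 and -0.44.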

How the data were processed

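Libraries were made from total RNA, per the labels with a TruSeq kit and 50-base reads. The deposited values were counts: the authors aligned reads with TopHat2 (2.0.8b in the submitters' processing notes) to mm9 and counted them per gene with HTSeq, as whole numbers without normalization. The annotation and the strand setting are not given in the sources used here, so antisense and overlapping genes could share reads, and reads with several genome positions were left off genes. HTSeq's summary counters, 52.0% to 59.0% of each table's total, were removed. The deposited lncRNA tables were not used. The labels give 6 h for the earliest time and the series' design text gives 8 h. Groups and times follow the labels, and slopes per doubling of hours depend on that choice.

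The members and gene lists were chosen with earlier results of these data known. Genes were tested in R 4.3.3 with edgeR 4.0.16 (TMM, filterByExpr with a minimum count of 10 and a total of 15, quasi-likelihood test, Benjamini-Hochberg over all genes tested, limit 0.05). Scripts were tested on simulated data. Genotype was compared over the 6 libraries of the times that the study's methods list. They name no block, and none was used, with the culture times serving as replicates. Culture time was tested over 7 libraries with genotype as a term. The fit with 72, 48 and 6 h as levels was an alternative to the slope, and the contrasts with 48 h were added after the data were seen. Alternatives were DESeq2 1.42.0, limma 3.58.1 on log2(RPKM + 0.1), RLE size factors, no filter, all 8 libraries, the block and leaving out each library. Nothing in the labels says that libraries came from separate cultures. Libraries of the same time deviated together over all genes (r = 0.71, 0.53 and 0.84 at 6, 48 and 72 h), so the block is reported. Single-library differences are on log2(CPM + 0.5), which understates changes of low genes, and floors of 3 counts cover counting error only. Lengths and exon windows came from GENCODE M1 on mm9, and promoters from RefSeq on GRCm38.p6.

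All 44 members were named. Values per library were given for 26 members listed by role, those past the genotype limit, and the 3 highest and 3 lowest per comparison. Ccnb2, Pttg1 and Cdc45 were named after their values were seen. Of other genes, those past the limit, the 2 highest and 2 lowest per comparison and the inhibitors were named.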

Additional observations from a re-analysis of the deposited data

Results flagged for a closer look

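In 5 of 88 groups of 4 libraries (44 genes in each line, all culture times), 1 library stood far from the rest by Dixon's ratio of its gap to the whole range. Chance gives about 1 in 20 such groups, 4.4 of 88. The iBmp2ko/ko library of 72 h was the high one for Ccne1 (ratio 0.926), Plk1 (0.900) and Cenpa (0.833). Mcm3 was highest in the iBmp2fx/fx library of 48 h (0.876), and Mcm7 was lowest in that of 72 h (0.842). The groups labelled iBmp2ko/ko include the library of 24 h that resembled the iBmp2fx/fx library of 6 h.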

How the results depend on the processing

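The genotype count of 0 members held under each alternative run but the replicate block, with culture time as the block, which gave 8 over 6 libraries and 0 over 8. With a library left out in turn it stayed at 0 without the block, and ranged from 2 to 7 with it. The count past the study's limit ranged from 0 to 2 without each library, and the median fold change from -0.0945 to 0.27.

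For culture time the slope gave 0 members in edgeR, 8 in DESeq2 and 30 with 72 h against 6 h as levels, and 0 to 5 when a library was left out. Its median ranged from 0.0627 to 0.15 without each library and was 0.0751 in iBmp2fx/fx libraries alone. The median interaction ranged from -0.0679 to 0.65. With culture times as levels, leaving out a library gave 14 to 31 members for 72 against 6 h, 1 to 5 for 48 against 6 h and 6 to 26 for 72 against 48 h. With all 8 libraries the latter counts were 0 and 16. Fewer libraries or the doubted one entered these fits, and the cause was not tested otherwise.

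The signs of 6 small 72 h differences reversed without a library: Cdc6 ranged from -0.0508 to 0.11, Mcm3 from -0.15 to 0.0090, Mcm4 from -0.10 to 0.17, Mcm5 from -0.20 to 0.0800, Aurkb from -0.0166 to 0.13 and Nek2 from -0.0510 to 0.64. Each member had at least 395 reads in every library, with 1 library per line and time. What depth or more libraries would change was not tested.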
